A study of Mus musculus with 48 samples.

Results

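Ribosomal protein pseudogenes are copies of the genes that encode the proteins of the cytosolic ribosome, and 161 of them were counted in mouse liver. They were chosen by name and not by value: every gene whose symbol has the form Rpl or Rps followed by -ps and whose total in the table of young and aged livers was at least 1. In all, 300 annotated genes have a symbol of this form, and 25784 genes of any kind had at least 1 count in that table. Of the 161, 94 derive from large subunit genes (Rpl) and 67 from small subunit genes (Rps), and together they go back to 56 parent genes. The annotation lists 152 as processed pseudogenes, 5 as transcribed processed pseudogenes and 4 as protein coding (Rpl10-ps3, Rpl36a-ps1, Rpl9-ps6 and Rps12-ps3).

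A processed pseudogene arises when a messenger RNA is copied back into DNA and inserted elsewhere in the genome, so it lacks the introns of its parent and usually its promoter. Ribosomal protein messengers are short and abundant, and their processed copies form one of the largest pseudogene families of mammals. Most such copies are held to be silent, and because a young copy is nearly identical to the parent messenger, short reads can fit both places. NAD capping, which ONE-seq was designed to detect, means that an RNA starts with nicotinamide adenine dinucleotide in place of the usual methylguanosine cap.

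All libraries came from livers of C57BL/6 mice and were made from polyA RNA. In ONE-seq, NAD-capped RNA was biotinylated with the reagent HEEB by the enzyme ADPRC and caught on streptavidin beads, part of the biotinylated RNA was kept back as input, and the bound RNA was released with NudC, a hydrolase that cuts the NAD cap (enrichment). The age experiment had 4 young livers (2 months) and 4 aged livers (18 months), each with input and enrichment. The spike-in experiment had livers of 18 months mixed with synthetic RNA carrying 0%, 1%, 5% or 10% of NAD caps, with replicates 1 to 3 of each mixture, and the elution experiment had livers of 12 months with NudC (NudC+) or mock (NudC-) elution, 2 per arm, which makes 48 libraries in all. The livers were whole tissue, and neither sex nor pooling of animals is given in the sources used here.

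Library totals were 9149931 to 14953661 counts in the age experiment, 7242321 to 8725646 in the elution experiment and 3694383 to 10277863 in the spike-in experiment. All listed markers of 7 liver cell classes had counts in every group. In young input the summed level was 99502 to 120035 cpm for the 6 hepatocyte markers (cpm, counts per 1e6 of the library total after trimmed-mean, TMM, scaling), 246 to 420 cpm for Kupffer cells, 106 to 127 cpm for sinusoidal endothelial cells, 134 to 185 cpm for stellate cells, 7.05 to 7.99 cpm for cholangiocytes, 191 to 207 cpm for red blood cells and 0.73 to 2.71 cpm for B and T cells, so hepatocyte markers had the highest level.

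The copies were mostly near-perfect. Over the members, the median identity with the parent's transcript was 98.5%, and the median exon length was 480 bases (151 to 1347), against 3835.5 bases over the genes tested in the age experiment. The 139 genes with a symbol of this form and no count had a median identity of 91.5%. All but 1 of the 161 consist of a single exon block, 59 overlap another gene, and 48 lie within an intron of a protein-coding gene, where 32 are on the opposite strand and 17 on the same strand (1 counts under both). To show how far reads could separate copy and source, every stretch of 100 bases of a pseudogene was searched for in the transcripts of all other genes. In 28 members no such window was found elsewhere, in 73 under 50% of windows were, in 40 at least 50% but not all, and in 20 every window was. The counting parameters given in the study's methods hold no option for multi-mapping pairs, which featureCounts leaves out by default. A pair placed at a copy may still fit its parent almost as well, so the counts of all members below that share windows are uncertain between copy, parent and other copies.

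The 5 sequences here were chosen to span that range, from a copy that no read inside it can separate to one with many differences. Each is the transcript of the pseudogene, 5′ to 3′, GRCm38, with capitals marking bases that differ from the parent's transcript. Rps16-ps2 (chr5:129128418-129128517, minus strand, an intron of Adgrd1) is shown for its first 100 of 441 bases, none of the 441 differing from Rps16. Rpl39-ps (chr15:102635038-102635188, plus strand) is whole, 151 bases with 1 difference. Rps25-ps1 (chr6:145266400-145266607, plus strand) is shown for bases 1 to 208 of 378, with all 4 differences. Rps18-ps3 (chr8:107262819-107263088, minus strand) is shown for bases 161 to 430 of 456, with all 3 differences. Rpl13a-ps1 (chr19:50030352-50030651, minus strand) is shown for bases 85 to 384 of 612, with 16 of its 29 differences.
Rps16-ps2: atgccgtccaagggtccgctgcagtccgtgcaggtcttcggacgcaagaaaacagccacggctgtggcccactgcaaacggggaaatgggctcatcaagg
Rpl39-ps: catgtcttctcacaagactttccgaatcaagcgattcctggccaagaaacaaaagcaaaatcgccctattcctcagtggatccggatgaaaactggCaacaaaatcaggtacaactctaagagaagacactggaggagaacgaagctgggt
Rps25-ps1: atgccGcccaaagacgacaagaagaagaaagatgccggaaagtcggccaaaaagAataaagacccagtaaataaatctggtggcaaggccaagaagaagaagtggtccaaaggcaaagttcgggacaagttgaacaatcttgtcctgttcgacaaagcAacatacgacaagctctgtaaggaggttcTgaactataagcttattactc
Rps18-ps3: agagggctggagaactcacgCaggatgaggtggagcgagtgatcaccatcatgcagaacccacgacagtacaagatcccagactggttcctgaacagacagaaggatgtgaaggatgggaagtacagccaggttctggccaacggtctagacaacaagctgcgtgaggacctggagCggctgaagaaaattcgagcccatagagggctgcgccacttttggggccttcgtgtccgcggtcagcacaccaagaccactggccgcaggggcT
Rpl13a-ps1: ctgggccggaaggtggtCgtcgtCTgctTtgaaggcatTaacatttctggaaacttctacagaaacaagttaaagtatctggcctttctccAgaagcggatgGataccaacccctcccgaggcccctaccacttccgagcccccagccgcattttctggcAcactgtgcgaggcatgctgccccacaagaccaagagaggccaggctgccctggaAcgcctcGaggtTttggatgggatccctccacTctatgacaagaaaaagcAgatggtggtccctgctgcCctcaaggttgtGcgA
Written as the parent's base, the position counted from 1 at the 5′ end of the pseudogene transcript and the pseudogene's base, the single difference of Rpl39-ps is T97C, those of Rps25-ps1 are T6G, G55A, G159A and C188T, and those of Rps18-ps3 are G181C, A337C and C430T. The longest stretch identical to the parent was 441 bases in Rps16-ps2, 190 in Rps25-ps1, 180 in Rps18-ps3, 96 in Rpl39-ps and 57 in Rpl13a-ps1. Rps18-ps3 also shares 58.5% of its windows with Gm11361, so Rps18 is not its only close relative.

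Counts were concentrated in few members. The mean count over the 16 libraries of the age experiment was under 1 for 79 members, 1 to under 10 for 29, 10 to under 100 for 18, 100 to under 1000 for 27 and at least 1000 for 8. Members whose windows were all found elsewhere had a median mean count of 27.5 (n = 20), those with at least 50% shared 19.3 (n = 40), those with under 50% shared 0.75 (n = 73) and those with none 0.19 (n = 28). Members with more of their sequence found elsewhere thus had the higher counts, a description with no test.

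Together the members held 0.231 to 0.253% of counts in the 4 young input libraries, beside 0.671 to 0.740% for the 79 functional ribosomal protein genes. Of the counts on members and their parents combined, 37.1 to 38.8% lay on the pseudogenes in young input and 35.7 to 37.1% in aged input. The young enrichment libraries had 31.6 to 33.1% and the aged ones 30.0 to 31.6%, below every input library of the same age, whereas NudC- enrichment (35.5 to 36.4%) overlapped its input (36.2 to 36.3%) and NudC+ enrichment (35.9 and 36.3%) lay above both of its inputs (35.6 and 35.8%).

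At 35 members, from 27 parents, the level per length was above that of the parent in all 4 young input libraries. Rps16-ps2, a copy of the gene for a small subunit protein, was the most abundant per length, at 473 ± 42.4 cpm per kb (SD, n = 4), against 21.4 ± 2.28 for Rps16. Its counts in young input replicates 1 to 4 were 2081, 1977, 2676 and 2171, and those of Rps16 were 289, 239, 330 and 294, so all 4 libraries placed the copy far above its source. Rps10-ps2 had 1161, 1296, 1496 and 1255 counts, and Rps10 itself, whose protein belongs to the small subunit, had 7, 13, 11 and 6. Per length this was 246 ± 14.3 cpm per kb for Rps10-ps2 and 0.38 ± 0.13 for Rps10. Rpl38-ps2, named after its values were seen, showed the same order at 296 ± 34.0 against 0.98 ± 0.42 cpm per kb for Rpl38. Rps2-ps10, on the other hand, had 98.3 ± 7.35 cpm per kb against 293 ± 22.5 for Rps2. The exon length of a parent can include retained introns of its annotated transcripts, which lowers its level per length.

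In raw counts, 18 of the 56 parents were exceeded by the sum of their members in young input. The median share on the pseudogenes was 99.4% for Rps10, 99.1% for Rpl38, 98.9% for Rpl17, 97.4% for Rps6, 96.6% for Rpl10a and 88.5% for Rps16. It was 19.0% for Rps25 and 11.4% for Rps18, so the parent kept most counts in those families. Across members the levels of copy and parent had r = -0.03 on log10 cpm per kb, a description over genes of the same libraries.

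**Figure D1:**
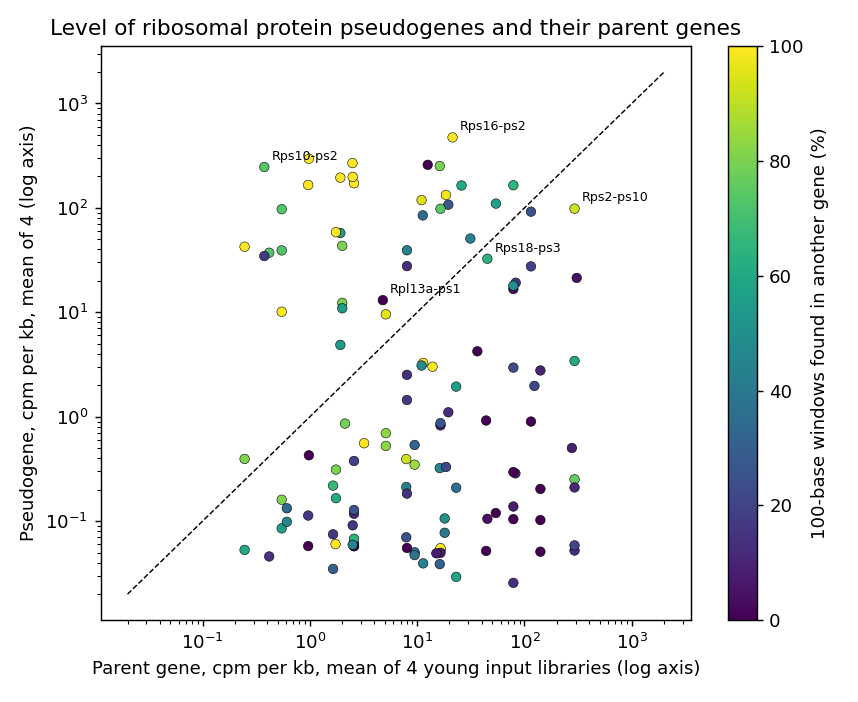
Level of each pseudogene with counts in young input against its parent, in cpm per kb, means of 4 young input libraries on log axes, with the colour giving the percent of 100-base windows found in another gene and the dashed line equality. Rps16-ps2 (473 against 21.4) and Rps10-ps2 (246 against 0.38) lie above the line and Rps2-ps10 (98.3 against 293) below it.

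Young and aged input were compared to ask whether the copies differ with age before capture. Here and below, edgeR's quasi-likelihood test was fitted to all genes that passed the filter (at most 25% of an experiment's libraries at 0), and adjusted p means Benjamini-Hochberg over all of them. Of the 72 members that passed, 64 had a log2 difference (young minus aged) above 0, with a median of 0.41 beside -0.01 over all 15636 genes tested. At adjusted p under 0.05, 16 were higher in young livers and 0 lower (1 with an unadjusted p under 0.05 in that direction), or 22.2% where the background was 12% of genes higher in young and 12.5% lower. The functional ribosomal protein genes gave 22 of 79 higher and 0 lower. With library size alone as scaling, the median of all genes moved to -0.20, that of the members to 0.22, and 5 of 72 members passed. Under that scaling 4485 of 15636 genes passed in either direction, with 22.4% of these higher in young livers, against 49.0% of 3821 in the main fit. The number that passed was 36 of 80 tested members when only the input groups were fitted, 27 of 161 when all genes with 1 count were kept, and 10 without aged replicate 2 or without aged replicate 4. Over all genes, 4598 of 16157, 4013 of 25784, 3307 of 15350 and 3001 of 15370 passed in either direction in these fits. Of those passing, 49.4%, 46.2%, 48.7% and 48.5% were higher in young livers.

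Rps16-ps2 was at 213, 191, 233 and 197 cpm in young input replicates 1 to 4 and at 144, 136, 151 and 130 cpm in the aged ones, without overlap, a log2 difference of 0.57 (SE 0.12, adjusted p 0.00102). Rpl10a-ps1 (0.63, adjusted p 0.0040), Rpsa-ps10 (0.63, adjusted p 0.00146) and Rpl3-ps1 (0.50, adjusted p 0.00113), copies of genes for ribosomal proteins of both subunits, were also higher in young livers. Rps10-ps2 was at 119, 125, 130 and 114 cpm in young and 102, 85.0, 90.5 and 86.9 cpm in aged input, again without overlap (0.42, SE 0.12, adjusted p 0.0108). Rps2-ps10 differed little (0.0067, SE 0.12, adjusted p 0.975). Only Rps15a-ps6 was called at 2-fold (1.64, SE 0.58, adjusted p 0.0425), where the background was 8.51% in either direction and 3.26% higher in young. Its counts were 8, 6, 9 and 1 in young and 3, 2, 3 and 2 in aged input. Leaving out any one of 6 replicates (young 1 to 3 or aged 1, 2 or 4), input and enrichment together, left 0 calls of this kind. The summed hepatocyte markers, all 6 of 6 with counts, were at 99502 to 120035 cpm in young and 62149 to 73855 cpm in aged input, and their part in these differences was not tested. In whole tissue, fewer cells of a type and less RNA per cell cannot be told apart.

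For enrichment over input, a member was called higher or lower if it changed at least 2-fold with adjusted p under 0.05. In young livers 5 of 72 were called higher (6.94%, background 13%) and 7 lower (9.72%, background 14.2%), with a median log2 fold change of -0.01 beside 0.00 over all genes. In aged livers 1 was higher (1.39%, background 11.5%) and 9 lower (12.5%, background 14.3%), with a median of -0.20. In the spike-in mixtures 6 of 68 were higher (8.82%, background 11.4%) and 2 lower (2.94%, background 13.4%), with a median of 0.17. All these shares were near or below the background. The elution experiment differed: 41 of 89 were higher in NudC- (46.1%, background 9.35%) and 26 of 89 in NudC+ (29.2%, background 7.67%), with medians of 1.55 and 0.99 and 0 lower in either arm (background 5.66% and 6.01%). At adjusted p under 0.05 without the 2-fold limit, 11 members were higher and 14 lower in young livers (background 27% and 27.2%), 5 and 21 in aged livers (26.5% and 27.7%), 24 and 13 in the mixtures (31.7% and 34.7%), 41 and 0 in NudC- (10.1% and 6.79%) and 29 and 0 in NudC+ (8.54% and 6.8%). In the lower direction edgeR gave 0 members with an unadjusted p under 0.05 in NudC- and 2 in NudC+ (Rpl23a-ps2 and Rps2-ps9, named after their values were seen), DESeq2 called 0 in both arms, and 1 was called in NudC+ with the liver as a block and 1 with no filter beyond 1 count. With members that had no count in a whole group set to the bound that 3 counts per library allow, the medians were 1.55 and 0.97. The calls include Rpl34-ps2 in NudC- and Rpl27-ps3 in NudC+, named after their values were seen. Neither had a count in any input library of that arm, so they could only come out higher.

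The functional ribosomal protein genes, from a list of 79, ran beside the pseudogenes, with 4 higher and 1 lower in young livers (median 0.11), 1 higher and 5 lower in aged livers (-0.09), 51 and 0 in NudC- (1.53) and 35 and 0 in NudC+ (1.17). In the spike-in mixtures 1 of 78 was higher and 0 lower. Genes for the mitochondrial ribosome, whose proteins are also encoded in the nucleus, gave 20 of 77 higher and 1 lower in young livers (0.54), 15 and 2 in aged livers (0.51), 19 and 1 in the mixtures (0.54), 43 and 0 in NudC- (1.16) and 35 and 0 in NudC+ (1.00). The other processed pseudogenes, which share the missing introns but not the parents, gave 240 of 1084 higher and 59 lower in young livers (0.41), 199 and 46 in aged livers (0.37), 205 and 54 of 927 in the mixtures (0.38), 271 and 4 of 1184 in NudC- (0.84) and 216 and 6 in NudC+ (0.73). No test of the difference between lists was made.

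Fold changes also differed between length classes over all genes. Of the 579 tested genes with under 500 exon bases, 137 were called higher in young livers (23.7%, median 0.49), and of the 7489 with at least 4000, 431 were higher and 1897 lower (median -0.48). In NudC- the shorter class gave 255 of 861 higher (29.6%, median 1.40). The members, mostly short, thus lay below the short class in young livers and above it in NudC-.

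**Figure D2:**
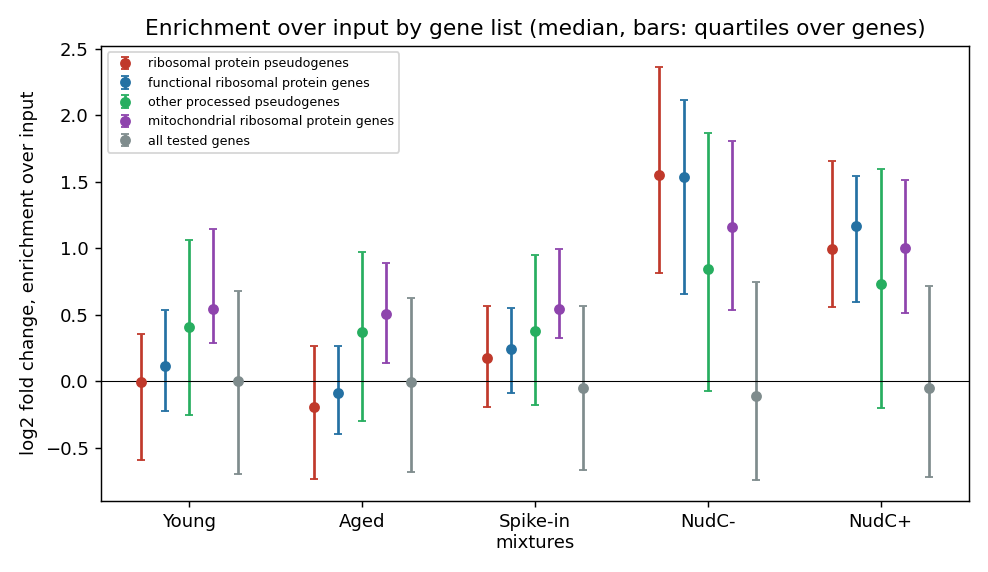
Median log2 fold change of enrichment over input (points) with quartiles over genes (bars) for 5 gene lists in the 5 comparisons. The ribosomal protein pseudogenes (red) sit at -0.01, -0.20 and 0.17 in young, aged and spike-in livers and at 1.55 and 0.99 in NudC- and NudC+.

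Of the copies called higher in young livers, 3 were abundant. Rps25-ps1 was at 21.4, 17.2, 19.9 and 18.4 cpm in input and 39.2, 55.2, 32.1 and 39.5 cpm in enrichment. Every enrichment library lay above every input library (log2 fold change 1.11, SE 0.19, adjusted p 3.5e-05, higher in 4 of 4 pairs). Its parent Rps25, for a small subunit protein, changed alike (1.21, SE 0.17, adjusted p 2.89e-06). Rps15a-ps7 went from 13.8, 15.1, 17.2 and 15.5 cpm to 27.4, 55.0, 23.6 and 34.6 cpm (1.18, SE 0.22), also without overlap. Rpl7-ps7, a copy of a large subunit gene, went from 16.8, 15.95, 16.98 and 11.6 cpm to 26.5, 46.2, 30.0 and 30.7 cpm (1.12, SE 0.16). Rpl34-ps2, named after its values were seen, was called on at most 8 counts in any young library. Enrichment replicate 2 was the highest in these 3 abundant copies, and without young replicate 2 the number called higher fell to 2.

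In aged livers Rps25-ps1 had 16.1, 10.7, 16.9 and 14.02 cpm in input and 32.8, 22.4, 32.5 and 17.5 cpm in enrichment (0.87, SE 0.19, adjusted p 0.000500), under the 2-fold limit. The single call there, Rps15a-ps6 (1.53, SE 0.58, adjusted p 0.0291), had 3, 2, 3 and 2 counts in input and 7, 7, 5 and 6 in enrichment, and was no longer called without aged replicate 1 or without aged replicate 2. Of the abundant copies Rps16-ps2 was at 233, 312, 212 and 223 cpm in young enrichment and at 130, 113, 145 and 112 cpm in aged enrichment, overlapping its input in both ages (0.23, SE 0.12, adjusted p 0.108 in young, and -0.17, SE 0.12, adjusted p 0.243 in aged livers). With the liver as a block the young value of Rps16-ps2 was 0.22 with adjusted p 0.0350.

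Copies called lower included the largest change of the family. Rps18-ps3 had 196, 154, 142 and 133 counts in young input and 17, 30, 29 and 5 in young enrichment, and 152, 162, 125 and 121 against 42, 22, 24 and 20 in aged livers. The groups did not overlap at either age, with log2 fold changes of -2.81 (SE 0.30, adjusted p 6.91e-08) and -2.11 (SE 0.29, adjusted p 2.26e-06). Its parent Rps18 moved the same way by less (-0.74 in young livers, SE 0.13, adjusted p 6.41e-05).

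Rpl31-ps8, identical to Rpl31 over all its 378 bases, was at 70.9, 67.8, 63.5 and 58.4 cpm in young input and 21.4, 44.2, 21.7 and 21.3 cpm in young enrichment (-1.27, SE 0.18, adjusted p 2.4e-06). Rpl31 itself went the other way (0.72, SE 0.25, adjusted p 0.0198), and every 100-base window of the copy is also found in Rpl31. Rpl36a-ps2, likewise identical to its parent Rpl36a over its length, went from 74.5, 60.6, 63.5 and 51.5 cpm to 18.2, 46.3, 18.0 and 20.9 cpm (-1.28, SE 0.26). Enrichment replicate 2 was the highest of the 4 in both, as in the copies called higher.

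Rpl13a-ps1 has no 100-base window found in another gene. It had 88, 70, 106 and 77 counts in young input and 25, 36, 57 and 21 in enrichment (-1.16, SE 0.26, adjusted p 0.000703), and 102, 81, 45 and 71 against 39, 26, 21 and 19 in aged livers (-1.24, SE 0.27, adjusted p 0.000565). Input and enrichment did not overlap at either age. Rpl13a was at 0.30 in young livers (SE 0.19, adjusted p 0.207). Rpl17-ps5 (-1.34), Rpl36-ps12 (-1.12) and Rpl36a-ps1 (-1.06) complete the calls in young livers, and Rpl36a-ps2 (-1.70), Rpl36a-ps1 (-1.41), Rpl31-ps8 (-1.37), Rpl36-ps12 (-1.33), Rpl22-ps1 (-1.26), Rpl36-ps2 (-1.23) and Rpl39-ps (-1.06) those in aged livers. The 2 ages shared 6 of these, 85.7% of the 7 in young and 66.7% of the 9 in aged livers. Over all tested genes 1758 were called lower at both ages, 79.0% of the 2226 in young and 78.4% of the 2242 in aged livers. The lower calls fell on the large subunit in 6 of 7 and 8 of 9 cases, where 42 of the 72 tested members belong to it. Without young replicate 1, 4 members were called lower in young livers.

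**Figure D3:**
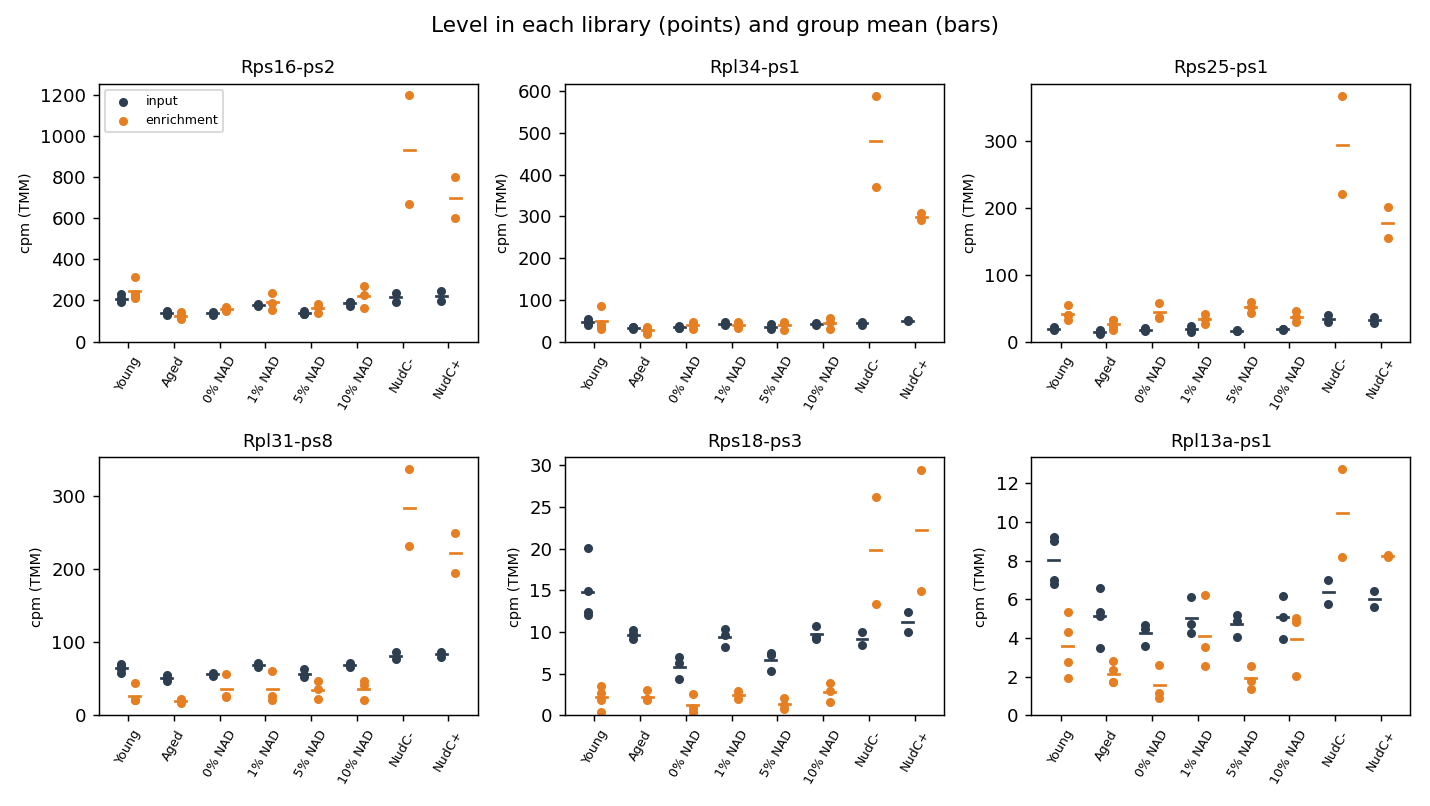
Level (cpm, TMM) of 6 pseudogenes in each library (points) and each group mean (bars) for input (dark) and enrichment (orange) in 8 conditions. The mean of Rps18-ps3 enrichment lies below input in young, aged and all 4 spike-in groups and above it in NudC- and NudC+, and Rps25-ps1 enrichment has the higher mean in all 8.

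The spike-in mixtures hold the same capture in 18-month livers, and the contrast averaged the 4 mixtures. Their livers may be among those of the aged group. In input replicates 1 to 3, Kupffer markers were at 467, 223 and 307 cpm at 0% NAD and 423, 250 and 328 cpm in aged livers. Red blood cell markers were at 307, 190 and 172 against 332, 190 and 188 cpm. Results of the mixtures and of aged livers are then not from independent animals. The study's methods give 3 biological replicates of livers for the mixtures. Over the 4 mixtures the red blood cell markers in input were at 288 to 383 cpm in replicate 1, 186 to 220 cpm in replicate 2 and 172 to 193 cpm in replicate 3. The 12 pairs may thus come from the same 3 livers, shared by the 4 mixtures, and p-values that take them as 12 animals are then too small. Rps25-ps1 had group means of 17.8 ± 1.71, 18.8 ± 4.47, 16.6 ± 0.77 and 18.3 ± 1.13 cpm in input at 0%, 1%, 5% and 10% NAD (SD, n = 3 each). In enrichment it had 43.9 ± 12.5, 34.2 ± 7.26, 51.4 ± 7.80 and 37.2 ± 8.003 cpm, higher in 12 of 12 pairs (1.20, SE 0.11, adjusted p 2.74e-09). All 4 mixtures had the higher mean in enrichment. Rps13-ps2 (1.10, SE 0.09, adjusted p 5.77e-10) and Rps15a-ps7 (1.09, SE 0.10, adjusted p 4.4e-09) were also higher in 12 of 12 pairs. As an alternative chosen after the data were seen, the counts of each replicate number were summed over the mixtures. There edgeR gave 1.24 for Rps25-ps1 (adjusted p 3.78e-06), 1.06 for Rps13-ps2 (adjusted p 7.02e-06), 1.09 for Rps15a-ps7 (adjusted p 1.67e-05) and -2.08 for Rps18-ps3 (adjusted p 2.3e-05). Of 99 members 8 were called higher and 2 lower, beside 1699 and 1927 of all 17996 genes.

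The other 3 calls in the mixtures, Rpl31-ps10 (1.56), Rpl34-ps2 (1.65) and Rpl27-ps3 (1.73), named after their values were seen, had at most 7 counts in any library. Rps18-ps3 was lower in 12 of 12 pairs, with input means of 5.87 ± 1.37, 9.42 ± 1.13, 6.70 ± 1.20 and 9.79 ± 0.81 cpm and enrichment means of 1.31 ± 1.16, 2.47 ± 0.45, 1.34 ± 0.65 and 2.78 ± 1.16 cpm (-2.04, SE 0.21, adjusted p 1.83e-08). The other copy called lower, Rpl13-ps6 (-2.60), had 2 to 13 counts in input and 0 to 4 in enrichment libraries.

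In the elution experiment 81 of the 89 members tested had a log2 fold change above 0 in NudC- and 80 in NudC+. The median over all 17325 genes was -0.11 in NudC- and -0.05 in NudC+. The functional and mitochondrial ribosomal protein genes had medians above 0 in both arms as well. Rps16-ps2 had 192 and 239 cpm in NudC- input and 667 and 1199 cpm in NudC- enrichment (2.12, SE 0.34, adjusted p 0.00499), and 197 and 246 against 599 and 798 cpm in NudC+ (1.65, SE 0.34, adjusted p 0.0145). Rpl34-ps1, a copy of a large subunit gene, had 40.2 and 47.3 cpm against 370.3 and 589 cpm in NudC- (3.45, SE 0.30, adjusted p 0.000457), and 49.2 and 51.5 against 291 and 307 cpm in NudC+ (2.57, SE 0.28, adjusted p 0.00202). Both enrichment libraries lay above both inputs in each case.

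Rps15a-ps5 rose from 7.12 and 7.90 to 64.7 and 97.3 cpm in NudC- (3.43, SE 0.27) and from 6.201 and 5.69 to 56.1 and 58.0 cpm in NudC+ (3.26, SE 0.27), whereas in young livers it was called in neither direction. Rps12-ps3 (3.25 and 2.64), Rps25-ps1 (3.10 and 2.48), Rps15a-ps7 (3.20 and 2.45) and Rpl39-ps (2.86 and 2.00) rose in both arms. The largest fitted values in NudC- were on sparse copies: Rps15a-ps6 (4.53) had 0 and 5 counts in input and 21 and 60 in enrichment. Rpl34-ps2 had 0 counts in both inputs and 5 and 9 in enrichment, at least 3.38-fold higher against the floor of 3 counts per library. In NudC+ Rpl27-ps3 had no count in either input and was at least 3.39-fold higher against that floor. The lowest were Rpsa-ps2 (0.04, SE 0.25, adjusted p 0.936 in NudC-, and 0.09, SE 0.25, adjusted p 0.867 in NudC+), at 21.1 and 23.2 cpm in NudC- input and 19.2 and 26.4 in enrichment, and Rpl3-ps1 (0.30 and 0.26). The members called in the arms overlapped in 25, which is 61.0% of the 41 and 96.2% of the 26. Over all tested genes 1185 were called higher in both arms, 73.1% of the 1620 in NudC- and 89.2% of the 1329 in NudC+. The arms may come from the same livers, so these overlaps need not be between different animals.

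Copies called lower in the age experiment were not lower here. Rps18-ps3 had 84 and 87 counts in NudC- input and 88 and 165 in enrichment (1.10, SE 0.42, adjusted p 0.113), and Rpl13a-ps1 had 6.999 and 5.76 against 8.18 and 12.7 cpm (0.71, SE 0.32, adjusted p 0.168). Rpl31-ps8 rose from 77.2 and 86.3 to 231 and 336 cpm (1.79, SE 0.27, adjusted p 0.00370). The tables were normalized separately and the livers differed in age, so the difference between experiments was not tested.

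These calls rest on 2 livers per arm, and both arms may come from the same 2 livers. Red blood cell markers in input replicates 1 and 2 were at 311 and 88.7 cpm in NudC- and 351 and 90.5 cpm in NudC+. The arms are then not independent animals, and fits without the block do not account for it. Leaving out either replicate of an arm removed most or all calls in that arm, over all genes as well as members. These fits leave a lone input and a lone enrichment library in the arm, which are assumed to vary like the others. The medians stayed between 1.44 and 1.53 in NudC- and between 1.01 and 1.23 in NudC+ in those fits. With library size alone as scaling, the median over all genes moved from -0.11 to -0.82 in NudC-, and 25 members were called. The summed red blood cell markers, 5 of 5 with counts, were at 88.7 to 311 cpm in NudC- input and 235 to 929 cpm in NudC- enrichment, and at 90.5 to 351 and 186 to 801 cpm in NudC+, and their part in the result was not tested.

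**Figure D4:**
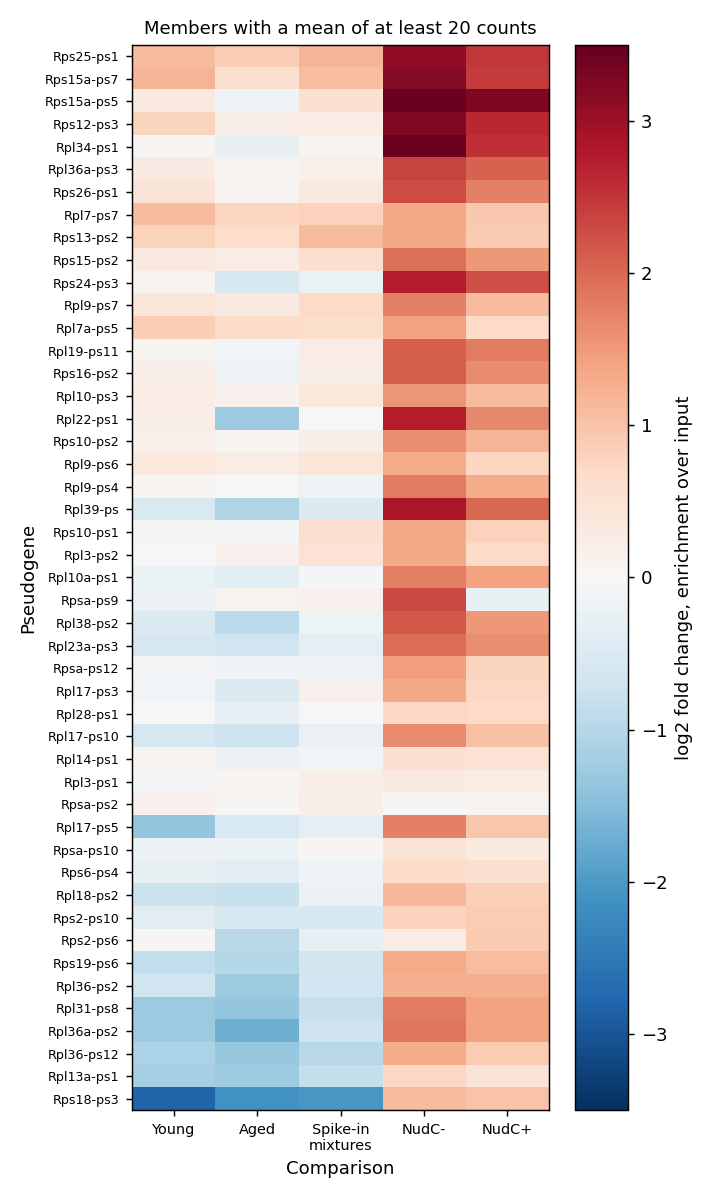
Log2 fold change of enrichment over input for the 47 pseudogenes with a mean of at least 20 counts in the age experiment, one row each, in 5 comparisons (red higher, blue lower). Rps18-ps3, in the bottom row, runs from -2.81, -2.11 and -2.04 in young, aged and spike-in livers to 1.10 in NudC- and 0.99 in NudC+, and Rps25-ps1, in the top row, is above 0 throughout.

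Whether enrichment itself differed with age or with the eluting enzyme was asked with interaction terms. Between young and aged livers 0 members, and 0 of all genes (background 0%), passed adjusted p under 0.05 by edgeR or DESeq2. By edgeR 8 of the 72 had an unadjusted p under 0.05 (background 3.76%), and by DESeq2 4 had (576 of all 15636 genes). Fitted with the liver as a block, 13 members had an unadjusted p under 0.05 and 0 were called. Over all 15636 genes 1274 had such a p in that fit and 8 were called. The median difference of the members was 0.15, and 0.00 without young replicate 2.

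Between NudC- and NudC+ 0 members were called by either tool, with 2 of 89 at an unadjusted p under 0.05 by both. The background was 1.61% by edgeR and 128 of 17325 genes by DESeq2. The median difference was 0.46, higher in NudC-, beside 0.02 over all genes, and 0.24 without NudC- replicate 2. With the liver as a block, 59 genes and 2 members were called, both higher in NudC-: Rpl34-ps1 (0.86, SE 0.18, adjusted p 0.0149) and Rpl39-ps (0.84, SE 0.20, adjusted p 0.0347). Over 11 fits without and with the block the adjusted p ranged from 0.0149 to 1.00 for Rpl34-ps1 and from 0.0347 to 1.00 for Rpl39-ps, while the difference stayed at 0.63 to 1.03 and 0.46 to 1.11.

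Copy and parent moved alike in part. Over the 47 members with a mean of at least 20 counts in the age experiment, the log2 fold changes of member and parent had r = 0.60 in young and 0.61 in aged livers, 0.58 in the mixtures, 0.76 in NudC- and 0.83 in NudC+, a description over genes of the same libraries, whose reads copy and parent can share. They were apart by at least 1 on the log2 scale for 4, 5, 3, 10 and 2 members, in that order. Rpl31-ps8 (-1.27) and Rpl31 (0.72) were among the pairs farthest apart in young livers. In NudC- Rps10-ps2 was at 1.62 (SE 0.29) and Rps10, with few counts, at -0.16 (SE 0.42).

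Because reads may move between copy and parent, the counts of each parent and all its named pseudogenes were also summed before the fit, an alternative chosen after the data were seen. Of the 56 families, 3 were called higher and 1 lower in young livers, 1 and 5 in aged livers, 3 and 0 in the mixtures, 40 and 0 in NudC- and 30 and 0 in NudC+. The parents alone gave 3 and 0, 1 and 1, 1 and 0, 34 and 0, and 25 and 0. No share over all genes was taken for the summed fits. In the fits without summing, the background higher and lower was 13% and 14.2% in young livers and 11.5% and 14.3% in aged livers. It was 11.4% and 13.4% in the mixtures, 9.35% and 5.66% in NudC-, and 7.67% and 6.01% in NudC+. Summed, the Rpl31 family was at -1.01 in young (SE 0.17, adjusted p 2.32e-05) and -1.06 in aged livers (SE 0.17, adjusted p 1.35e-05), where its pseudogenes together held a median of 94.2% of the family's young input counts. The Rps18 family was at -0.88 in young (SE 0.13, adjusted p 7.8e-06) and -1.02 in aged livers (SE 0.13, adjusted p 1.13e-06). In input, 22 of 56 families were higher in young livers at adjusted p under 0.05 and 0 lower. Without summing, the background was 12% higher and 12.5% lower.

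**Figure D5:**
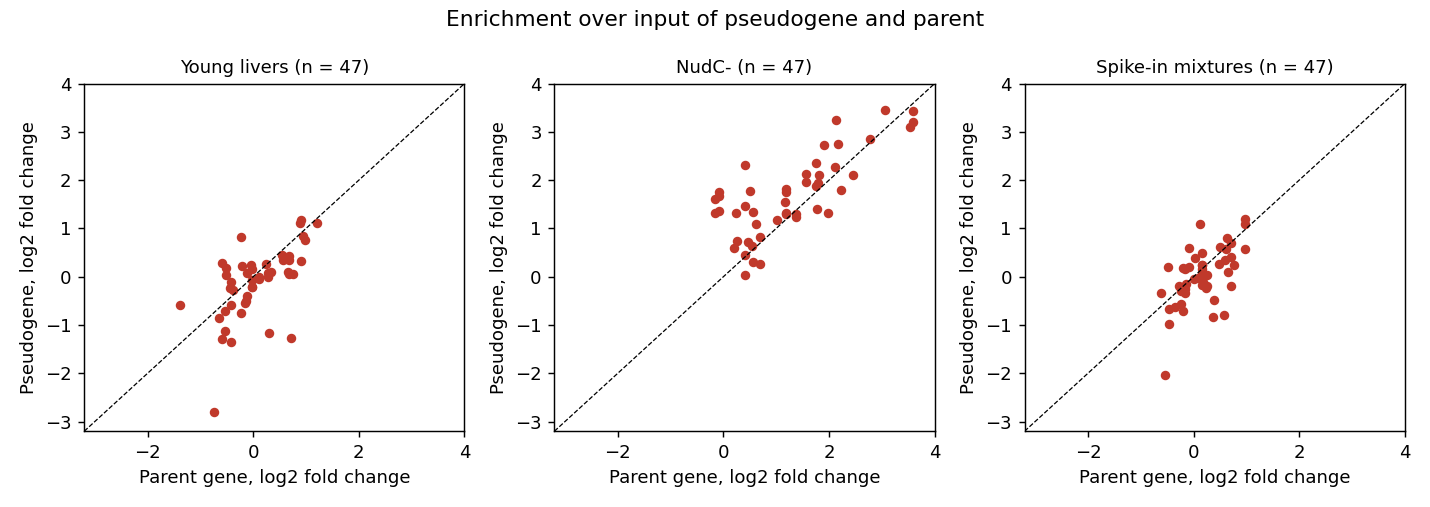
Log2 fold change of enrichment over input of each pseudogene (vertical) against its parent (horizontal) in young livers, NudC- and the spike-in mixtures, 47 pairs each, with the dashed line marking equality. The pairs follow the line loosely (r = 0.60, 0.76 and 0.58), and Rps18-ps3 is the lowest pseudogene in young livers at -2.81.

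Few tested members had no shared window. In the age experiment 6 of the 28 without a shared window passed the filter, among them Rpl13a-ps1, Rpl22-ps1, Rpl36-ps3, Rpl39-ps and Rpsa-ps11. Of the 6, 1 was called lower in young livers (background 14.2%) and 3 in aged livers (background 14.3%). Rpl39-ps, whose parent encodes a very small large subunit protein, had 426, 389, 421 and 421 counts in young input and 228, 379, 182 and 229 in enrichment (-0.54, SE 0.20, adjusted p 0.0295). In aged livers it had 559, 429, 387 and 374 against 213, 135, 214 and 138 (-1.06, SE 0.21, adjusted p 0.000151). The aged groups did not overlap, while in young livers enrichment replicate 2 (45.1 cpm) lay above every input library (36.7 to 43.6 cpm). Its level per length was 259 ± 20.8 cpm per kb in young input, against 12.5 ± 0.83 for Rpl39, with 1 base between them. In counts summed over young input the gap was smaller, 1657 on Rpl39-ps and 768 on Rpl39. A pair may still fit both almost equally well, although no window is shared.

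Rpl22-ps1, the X-linked copy of a large subunit gene (GRCm38 chrX:8038611-8038996, minus strand), had 14, 17, 23 and 16 counts in young and 45, 30, 39 and 16 in aged input. Its enrichment had 17, 15, 20 and 24 counts in young and 15, 10, 13 and 7 in aged livers (aged -1.26, SE 0.31, adjusted p 0.00137), and it rose in NudC- (2.74, SE 0.44, adjusted p 0.00466) and NudC+ (1.69, SE 0.43, adjusted p 0.0333). Over the members with every window found elsewhere, 0 of 13 were called higher (background 13%) and 3 lower (background 14.2%) in young livers. In NudC- 9 of these 13 were called higher (background 9.35%). Those with no shared window gave 2 of 9 higher in NudC-, too few to set against that background.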

How the data were processed

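RNA of mouse liver was sequenced as 150-base read pairs in 48 libraries. The authors trimmed reads with Trim Galore, used STAR for alignment to GRCm38 and featureCounts for read pairs per GENCODE gene, and deposited whole-number counts in 3 tables, one per experiment. The stated featureCounts parameters (-p -B -C) hold no option for multi-mapping pairs, which the tool leaves out by default. The authors' use of DESeq2 is named in the submitters' notes. In the table of the elution experiment 4 columns match no sample and were not used.

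Symbols, exon lengths and transcripts came from a GENCODE annotation of GRCm38. Counts were fitted with edgeR 4.0.16 (R 4.3.3, quasi-likelihood, TMM) on all groups of an experiment, after removing genes at 0 in more than 25% of libraries. A call needed a 2-fold change and adjusted p under 0.05 (Benjamini-Hochberg over all genes tested), and for interactions adjusted p alone. Tables and figures used Python 3.11.15, pandas 2.3.3, numpy 2.4.6, matplotlib 3.10.9 and Biopython 1.88. The fits were tested on simulated data. Alternatives were DESeq2 1.42.0, its size factors in edgeR, the groups compared alone, and scaling by library size only. Others were a filter at a mean of 10 counts, keeping all genes with 1 count, a block, and each replicate left out. The block was each pair of input and enrichment in the age and spike-in experiments, and the replicate number in the elution experiment. Counts summed per replicate number over the spike-in mixtures were an alternative chosen after the data were seen. Library totals (3694383 to 14953661 counts) limit the precision of members with few counts, and values cover 2 to 4 livers a group.

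Named members were the 10 with the highest input level, the 3 largest called and the 3 lowest per enrichment comparison among those with a mean of at least 20 counts, every member called in an interaction, in the age input comparison or called lower, and their parents. Some items are not reported here. The members and lists were chosen with earlier results of these data known. Input and enrichment with the same number came from the same liver RNA per the study's methods, and their deviations from the group means correlated at 0.22 to 0.43 in the age, 0.04 to 0.31 in the spike-in and 0.61 to 0.66 in the elution experiment.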

Additional observations from a re-analysis of the deposited data

Results flagged for a closer look

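In the aged livers 2 pairs stood apart from the other 3 by Dixon's criterion. Rps18-ps3 had a log2 ratio of enrichment to input of -1.66 in replicate 1, and Rps25-ps1 had 0.32 in replicate 4. These are 2 of 68 sets of named members and library shares tested, and chance gives about 1 in 20.

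Among the named members, in 31 cases every pair of an experiment was lower in enrichment while every NudC+ pair was higher. Many of these members were named because they were called lower or were among the lowest. NudC+ had only 2 pairs, in which most members were higher. No share over all genes was taken, so the 31 is a description only. The tables were normalized separately and the difference itself was not tested. In young livers the log2 fold changes were -2.81 for Rps18-ps3, -1.34 for Rpl17-ps5, -1.28 for Rpl36a-ps2, -1.27 for Rpl31-ps8, -1.16 for Rpl13a-ps1, -1.12 for Rpl36-ps12, -1.06 for Rpl36a-ps1, -0.70 for Rpl36-ps2, -0.39 for Rps2-ps10 and -0.21 for Rpsa-ps10. In aged livers they were -2.11 for Rps18-ps3, -1.70 for Rpl36a-ps2, -1.41 for Rpl36a-ps1, -1.37 for Rpl31-ps8, -1.33 for Rpl36-ps12, -1.26 for Rpl22-ps1, -1.24 for Rpl13a-ps1, -1.23 for Rpl36-ps2, -1.06 for Rpl39-ps and -0.96 for Rps2-ps6. Smaller values in aged livers were -0.56 for Rps2-ps10, -0.54 for Rpl17-ps5, -0.40 for Rps6-ps4, -0.38 for Rpl10a-ps1, -0.28 for Rpl28-ps1, -0.20 for Rpl14-ps1 and -0.17 for Rps16-ps2. In the spike-in mixtures they were -2.04 for Rps18-ps3, -0.98 for Rpl36-ps12, -0.67 for Rpl36-ps2 and -0.56 for Rps2-ps10.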

How the results depend on the processing

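Of the counts of members called in the comparisons, 83 values under the alternatives stayed within 1.5 times the reported count and 28 did not. With library size alone the number called higher was 1 in young livers, 0 in aged livers, 25 in NudC-, 13 in NudC+ and 2 in the mixtures, and 0 members differed 2-fold in input between ages. Under that scaling the share of genes higher among all past adjusted p moved from 49.8 to 28.4% in young livers, 48.9 to 26.96% in aged livers, 59.9 to 17.4% in NudC-, 55.7 to 18.8% in NudC+, 47.7 to 23.3% in the mixtures and 49.0 to 22.4% in the age input comparison. The median of the members in the mixtures became -0.27. Keeping all genes with 1 count, the number was 3 in young livers, 0 in aged livers and 0 in the age input comparison, and with a mean of at least 10 counts it was 3 in young livers, 0 in aged livers, 3 in the mixtures and 0 in the age input comparison, with fewer members tested. Leaving out a replicate gave 2 to 5 in young livers, 0 to 1 in aged livers, 0 to 35 in NudC-, 0 to 21 in NudC+, 5 to 8 in the mixtures and 0 to 2 in the age input comparison.

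With a block, 4, 1, 47, 33 and 6 members were called higher in young livers, aged livers, NudC-, NudC+ and the mixtures. The comparison of the elution arms gave 2. The block was the liver in the age experiment, each pair of 1 mixture and replicate number in the mixtures, and the replicate number in the elution experiment. Over all genes 9217, 9403, 7342, 7079 and 9868 passed adjusted p in either direction, in that order and without the 2-fold limit. Without the block 8480, 8478, 2931, 2657 and 9858 passed. The block of the mixtures does not account for a liver used in several of them. With the counts of a replicate number summed over the mixtures, 8 were called higher without and 7 with that block. Blocked values that passed adjusted p were 0.22 for Rps16-ps2, -0.26 for Rpl10a-ps1, -0.28 for Rps6-ps4 and -0.22 for Rpsa-ps10 in young livers, -0.21 for Rpsa-ps10 and -0.20 for Rpl14-ps1 in aged livers, and 0.30 for Rpl3-ps1 in NudC-. Rpl36-ps12 in the mixtures was called lower under the block (-1.03 against -0.98 without it). No other 2-fold call on a named member changed under the block. Blocking moved the share of higher genes in NudC- to 46.6%.

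Of the named members' values, 765 kept their direction and side of the threshold, 22 passed it only under the alternative, 37 lost it and 21 turned. Rpl28-ps1 in young livers turned to 0.0058 with DESeq2, 0.0067 with its size factors. With library size alone the young values of Rps16-ps2, Rpl19-ps11, Rps10-ps2 and Rpl14-ps1 were -0.17, -0.29, -0.21 and -0.31, the aged values of Rpl3-ps1 and Rps10-ps2 were -0.30 and -0.33, the NudC- values of Rpsa-ps2, Rps2-ps6 and Rpl3-ps1 were -0.67, -0.45 and -0.41, and the NudC+ values of Rpsa-ps2 and Rpl3-ps1 were -0.48 and -0.30. Leaving out 1 replicate gave values on both sides of 0 for Rpl3-ps1 (-0.10 to 0.0030), Rpl19-ps11 (-0.051 to 0.17), Rpl14-ps1 (-0.0095 to 0.16) and Rpl28-ps1 (-0.13 to 0.053) in young livers, Rps10-ps2 in aged livers (-0.015 to 0.12), and Rpsa-ps2 in NudC- (-0.13 to 0.15) and NudC+ (-0.19 to 0.44). Except for the filters, which change the genes tested, and the fits with fewer libraries, the cause was not tested.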
